A study of Mus musculus with 6 samples.

Results

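The genes of major histocompatibility complex (MHC) class I antigen presentation were measured in 6 primary thymic lymphomas of mice, 1 Affymetrix microarray per tumour. The genes followed were 9 by name, H2-K1, H2-D1, H2-T23, B2m, Tap1, Tap2, Tapbp, Erap1 and Nlrc5, and every probe set annotated to exactly 1 of these symbols was taken. This gave 25 of the 45101 probe sets on the array, for 8 of the 9 genes. Both probe sets that carry the symbol H2-T23 carry a second symbol as well, so no value is given for H2-T23. Of the 25 probe sets, 20 passed a filter on dim signals and entered the test, and all 8 genes kept at least 1. The 5 left out, 3 of H2-D1 and 2 of Tap1, stayed at an intensity of 10.4 or less in every tumour.

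The Notch1f/f tumours came from 3 mice of genotype IkL/L Notch1f/f CD4-Cre+, aged 8 to 10 weeks, whose tumours are labelled as carrying a deletion of the Notch promoter and exon 1. The Notch1+/+ tumours came from 3 mice of genotype IkL/L Notch1+/+ CD4-Cre+, aged 18 to 20 weeks. All 6 mice thus shared the homozygous IkL allele, which makes them deficient in Ikaros, a transcription factor of lymphocytes, and all carried Cre driven by CD4 sequences, which acts in developing T cells and would leave Notch1 intact in other cells. Age and genotype changed together, so their effects cannot be told apart. Each tumour came from a separate mouse. Tumour cells were collected by grinding the tissue, with no sorting step given, and the labels name neither strain background nor H2 haplotype.

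Class I molecules are made of a heavy chain and beta-2 microglobulin and carry short peptides from inside the cell to its surface, where CD8 T cells read them. Cytosolic peptides are pumped into the endoplasmic reticulum by a transporter, trimmed there, and loaded onto new heavy chains with the help of tapasin. In the normal thymus, immature cortical thymocytes carry little class I, mature thymocytes carry more, and stromal and myeloid cells carry much of it. In the mouse, 5 of the 8 measured genes lie in or beside the H2 complex on chromosome 17 (GRCm38.p6), Tapbp at 33919478 to 33929290, H2-K1 at 33996012 to 34000619, Tap1 at 34187556 to 34197225, Tap2 at 34204479 to 34216321 and H2-D1 at 35263094 to 35267497. B2m lies on chromosome 2 at 122147687 to 122153082, Erap1 on chromosome 13 at 74639573 to 74693205 and Nlrc5 on chromosome 8 at 94434335 to 94527272.

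Notch1 itself was not lower in Notch1f/f tumours. Its probe set 1418634_at had 3294, 3043 and 3418.5 in Notch1f/f tumours, against 3636.5, 2532 and 2838 in Notch1+/+ tumours, and 1418633_at had 2026, 1346 and 2211.5 against 1792.5, 656 and 568. Arrays of this kind read transcripts mostly near their end, away from the labelled deletion, and the probe positions were not used here, so these values do not check the genotype labels. The tumours carried the transcripts of T cells. Of 13 T cell markers, 12 were measured, and Cd3d, a chain of the T cell receptor complex and the brightest of them, had 4789, 4107 and 5798 in Notch1f/f tumours, against 2828.5, 3795 and 4438 in Notch1+/+ tumours. All levels in the text are MAS5 signal intensities in arbitrary units, comparable between tumours for 1 probe set but not between probe sets. Between 23.1% and 25.0% of probe sets on an array exceeded an intensity of 100, and Pearson's r between arrays over the tested probe sets, a description, ran from 0.918 to 0.962. With 3 arrays a group, precision is limited throughout.

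The comparison asks how class I presentation genes in tumours of mice with floxed Notch1 stood against those with wild-type Notch1. The 2 chains of the class I molecule and tapasin had higher mean signals in Notch1f/f tumours by 1.39-fold to 1.53-fold on the brightest probe set of each gene, with log2 differences of -0.08 to 1.02 over all tested probe sets of these 4 genes, while the peptide transporter, the trimming peptidase and the transactivator showed no shared direction. These 4 genes are those with the largest differences of the 8 on their brightest probe sets. No split of the members was planned, so this range follows from the grouping. No member probe set passed the test over the array. In limma with Benjamini-Hochberg adjustment over all 27022 tested probe sets, 0 of the 20 had an adjusted p under 0.05, the smallest being 0.248, where 0.0185% of all tested probe sets (5) did, and 0 were under 0.10, where 0.148% of all tested probe sets were. Before adjustment, limma's p was under 0.05 for 4 of the 20, all higher in Notch1f/f tumours (20.0%, beside 5.94% of all tested probe sets in that direction), and 0 were lower, beside 7.6%. A linear model without moderation gave 0 after adjustment and 2 before it. The 3 Notch1f/f values lay above all 3 Notch1+/+ values in 3 of the 20 (15%), beside 8.13% of all tested probe sets, and below them in 0 of the 20, beside 10.4%. Probe sets of 1 gene read the same transcripts, and the _x sets of H2-K1 and H2-D1 can also bind those of other genes, so they are not independent readings. Over the 8 genes, each by its brightest probe set, the median log2 difference was 0.35, beside -0.01 over all 12043 tested genes. It was 0.14 over the 7 genes that have a tested probe set with neither an _x nor an _s suffix.

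**Figure D1:**
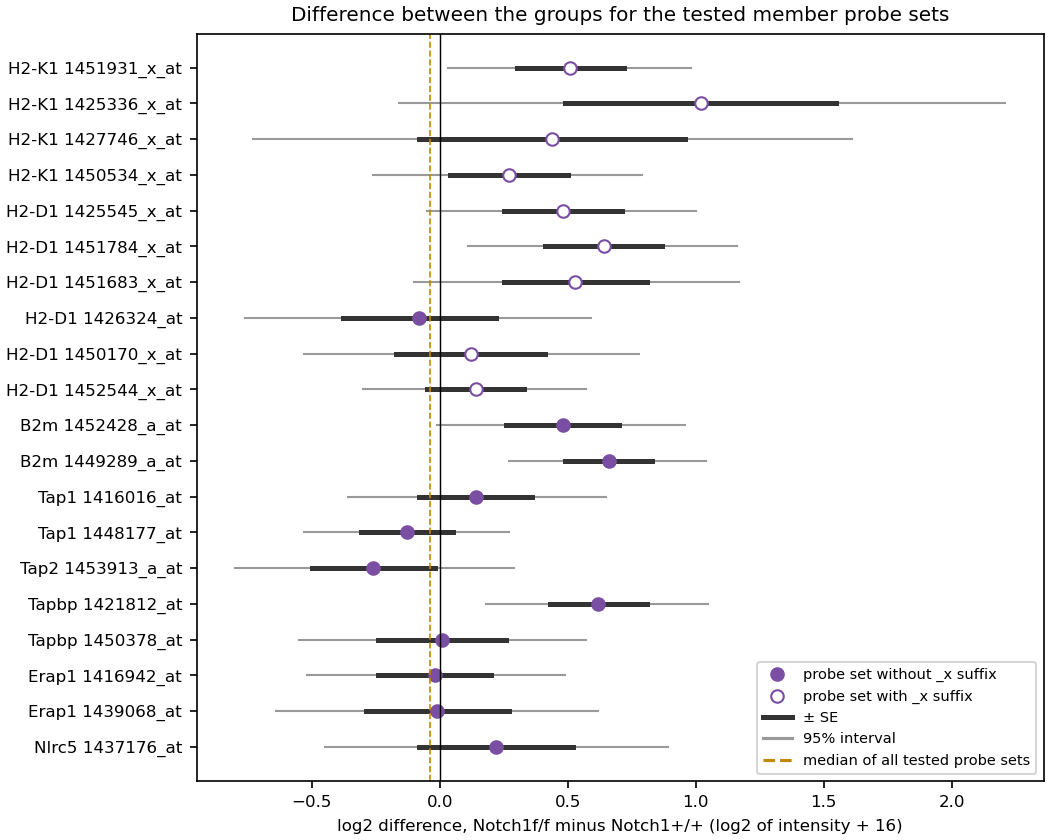
Log2 difference (Notch1f/f minus Notch1+/+, of intensity + 16) of each of the 20 tested member probe sets, with its SE (thick) and 95% interval (thin); open circles are probe sets with an _x suffix and the dashed line is the median of all tested probe sets, at -0.04. Probe sets of H2-K1, H2-D1, B2m and Tapbp reach from -0.08 to 1.02, and those of Tap1, Tap2, Erap1 and Nlrc5 from -0.26 to 0.22.

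B2m encodes beta-2 microglobulin, the light chain that every class I heavy chain needs to reach the surface. On 1 of its probe sets (1449289_a_at) it had intensities of 5075, 5052 and 4912 in Notch1f/f tumours, against 2802, 2791 and 4096 in Notch1+/+ tumours. The groups did not overlap, and the Notch1f/f values were much closer to each other (5013 ± 88.1, SD, n = 3) than the Notch1+/+ values (3230 ± 750). Its log2 difference was 0.66 ± 0.17 (SE), a 1.57-fold higher signal, with a 95% interval of 0.27 to 1.04 and an unadjusted p of 0.00373 (limma adjusted p = 0.248, exact permutation p = 0.1, two-sided). That exact p is the smallest that 3 tumours against 3 can give. The other probe set (1452428_a_at) had 4738, 4357 and 5073 in Notch1f/f tumours, against 2517, 3254 and 4738 in Notch1+/+ tumours. Here Notch1+/+ tumour 3 lay within the Notch1f/f range, so the groups overlapped, and the log2 difference was 0.48 ± 0.22 (limma adjusted p = 0.374). Without Notch1+/+ tumour 1, which was lowest on this probe set, the log2 difference was 0.26.

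H2-D1 encodes the classical heavy chain D. On its bright probe set 1451784_x_at it had 1255, 1157 and 1461 in Notch1f/f tumours, against 576, 968 and 989 in Notch1+/+ tumours. The groups did not overlap, although Notch1+/+ tumours 2 and 3 came much closer to the Notch1f/f tumours than Notch1+/+ tumour 1 did. The log2 difference was 0.64 ± 0.23 (SE, 95% interval 0.11 to 1.16, limma adjusted p = 0.311), and it was 0.39 without Notch1+/+ tumour 1. On the other bright probe set (1425545_x_at) H2-D1 had 1330, 1058 and 1342 in Notch1f/f tumours, against 625, 1026 and 1079 in Notch1+/+ tumours. The groups overlapped by a narrow margin between Notch1f/f tumour 2 and Notch1+/+ tumour 3, and the log2 difference of 0.48 ± 0.23 (adjusted p = 0.403 in limma) was 0.23 without Notch1+/+ tumour 1. The probe set 1451683_x_at also had a positive difference, 0.53 ± 0.28, and the remaining 3 tested ones lay between -0.08 and 0.14. The value of -0.08 ± 0.30 belongs to 1426324_at, the 1 tested H2-D1 probe set whose name marks no shared sequence, with intensities of 93.0, 87.4 and 67.5 in Notch1f/f tumours against 57.0, 89.6 and 129 in Notch1+/+ tumours.

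H2-K1 encodes the classical heavy chain K. Its brightest probe set (1451931_x_at) had 837, 660 and 894 in Notch1f/f tumours, against 481, 519 and 674 in Notch1+/+ tumours. The groups met only at Notch1f/f tumour 2 and Notch1+/+ tumour 3, and the log2 difference was 0.51 ± 0.21 (SE, 95% interval 0.03 to 0.98, limma adjusted p = 0.348). On 1425336_x_at the tumours spread far more, with 879, 415 and 825 in Notch1f/f tumours against 117, 557 and 490 in Notch1+/+ tumours. The log2 difference of 1.02 ± 0.53 (95% interval -0.16 to 2.21) rested largely on the low value of Notch1+/+ tumour 1 and was 0.35 without it. The probe set 1427746_x_at had 121, 52 and 121 in Notch1f/f tumours against 19.5, 140.5 and 75.9 in Notch1+/+ tumours. Its log2 difference was 0.44 ± 0.52, and -0.14 without Notch1+/+ tumour 1. The H2-K1 probe sets thus ranked the tumours differently, apart from Notch1+/+ tumour 1, which was lowest on all 4. All 4 carry the _x suffix, which marks probes that can bind transcripts of other genes, as do 12 of the 25 member probe sets. H2 genes also vary in sequence between mouse strains, and the part of shared or allelic sequence in these values was not tested.

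**Figure D2:**
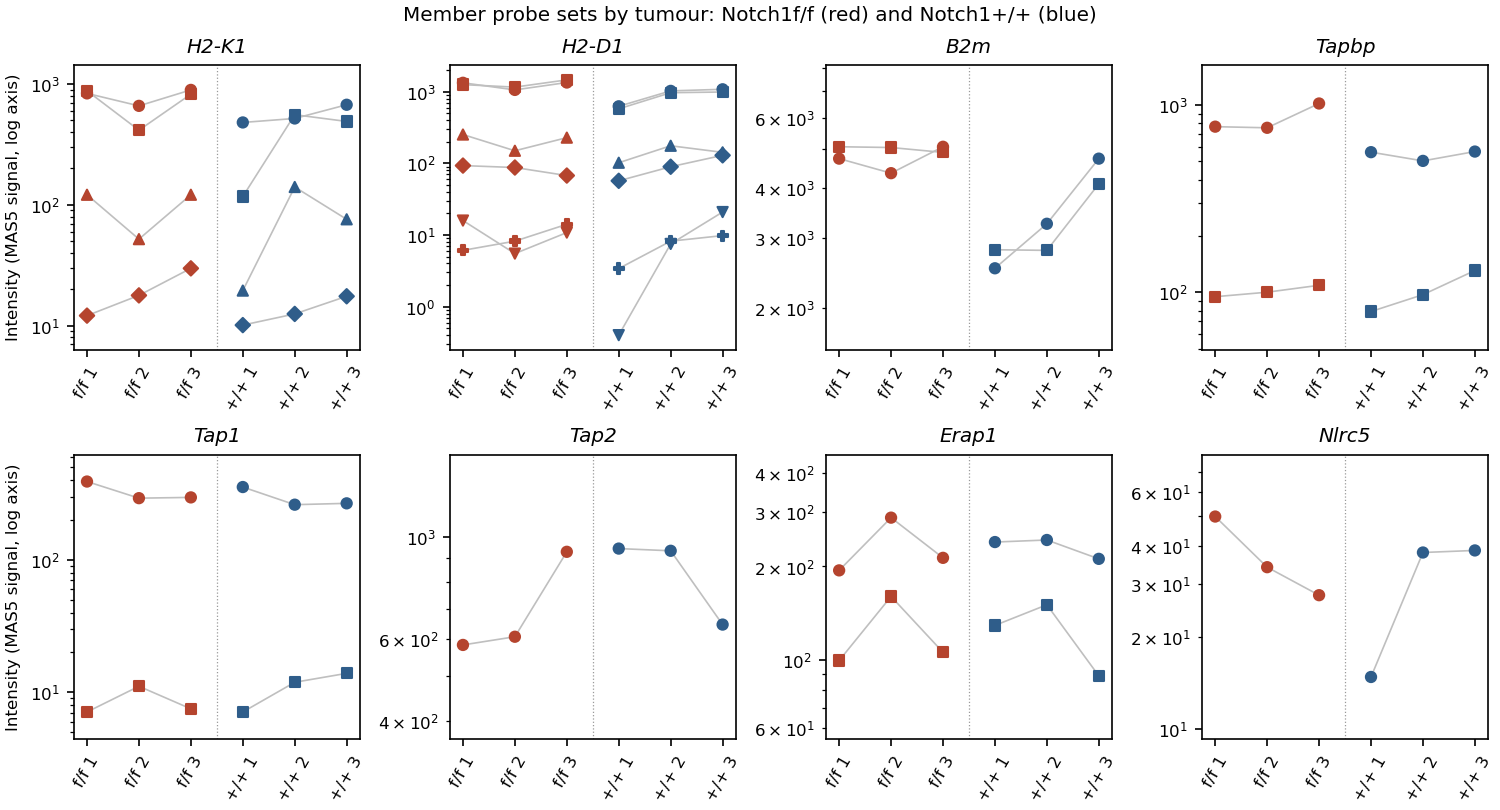
Intensity (MAS5 signal, log axis) of the tested member probe sets in each tumour, Notch1f/f in red and Notch1+/+ in blue; each marker shape is 1 probe set and grey lines join its values within a group. B2m on 1 probe set, Tapbp on its brighter probe set and H2-D1 on 1 bright probe set have all Notch1f/f values above all Notch1+/+ values, and Notch1+/+ tumour 1 is lowest on 13 of the 20 probe sets.

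Both chains of the molecule varied together over the tumours. Across the 6 tumours, with both groups pooled, Pearson's r was 0.92 between H2-K1 and B2m, 0.91 between H2-D1 and B2m and 0.87 between H2-K1 and H2-D1 on their brightest probe sets. Tapbp had r = 0.86 with H2-K1, 0.67 with B2m and 0.63 with H2-D1. Nlrc5 had 0.78 with H2-D1, 0.66 with B2m, 0.50 with H2-K1 and 0.08 with Tapbp. H2-K1, H2-D1, B2m and Nlrc5 were all lowest in Notch1+/+ tumour 1, with H2-D1 and Nlrc5 at -0.73 and -0.66 from their log2 means. That tumour thus weighs heavily in these r values, which were not computed without it. All these r values are descriptions over 6 points that include the difference between the groups, and the heavy chain probe sets can bind transcripts of other genes. The promoters of the 3 chain genes are shown as those of the molecule itself. The sequences are RefSeq windows of GRCm38.p6, 250 bases before to 50 after a start site, read 5′ to 3′ on the gene's strand, at chr17:34000298-34000597 on the minus strand for H2-K1 (the first of its 2 windows), chr17:35262844-35263143 on the plus strand for H2-D1 and chr2:122147437-122147736 on the plus strand for B2m. Capitals mark matches, on either strand, to GGGATTCCC (a form of the kappa B motif of NF-kB factors), GAAGTGAAA and GAAANNGAA (forms of the element bound by interferon regulatory factors), TGACG (the core of a CREB-type site) and CCAAT (the motif of NF-Y).
H2-K1: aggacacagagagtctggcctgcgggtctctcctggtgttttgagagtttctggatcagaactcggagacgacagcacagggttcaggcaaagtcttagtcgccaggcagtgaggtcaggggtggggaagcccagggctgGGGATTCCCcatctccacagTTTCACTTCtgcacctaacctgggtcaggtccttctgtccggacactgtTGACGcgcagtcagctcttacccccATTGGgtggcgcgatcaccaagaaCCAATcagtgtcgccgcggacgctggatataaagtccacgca
H2-D1: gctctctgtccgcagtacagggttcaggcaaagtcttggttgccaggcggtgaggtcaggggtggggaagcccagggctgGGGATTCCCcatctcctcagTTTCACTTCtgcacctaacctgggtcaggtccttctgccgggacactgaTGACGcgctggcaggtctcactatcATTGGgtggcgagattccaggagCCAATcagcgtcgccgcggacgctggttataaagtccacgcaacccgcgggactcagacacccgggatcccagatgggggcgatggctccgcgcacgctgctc
B2m: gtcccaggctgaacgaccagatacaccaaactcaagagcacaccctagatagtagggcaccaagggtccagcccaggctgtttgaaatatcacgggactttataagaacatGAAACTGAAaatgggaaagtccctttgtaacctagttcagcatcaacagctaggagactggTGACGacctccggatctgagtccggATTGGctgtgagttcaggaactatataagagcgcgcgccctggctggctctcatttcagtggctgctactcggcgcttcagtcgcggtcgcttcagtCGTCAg
The windows of H2-K1 and H2-D1 are alike, with 211 of 239 aligned bases identical (88.3%). Both hold GGGATTCCC and GAAGTGAAA, the last on the other strand as TTTCACTTC, beginning 110 and 90 bases before the start in H2-K1 and 170 and 150 in H2-D1. In the second H2-K1 window they begin 124 and 104 bases before the start. The distances depend on the annotated start, so they do not show that the motifs sit differently in the 2 genes. Of all 32544 distinct promoter windows, 0.353% hold GGGATTCCC and 0.507% hold GAAGTGAAA. The B2m window holds neither, and has GAAANNGAA, found in 8.53% of all windows, 139 bases before its start. All 3 windows hold TGACG and CCAAT, which are in 20.9% and 37.4% of all windows. No match overlaps another in these 3 windows. The window of Tapbp holds CCAAT alone of these motifs, that of Tap1 holds TGACG and CCAAT, and that of Erap1, whose means were almost equal, holds GAAANNGAA alone. Nlrc5 and Tap2 had no window.

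Tapbp encodes tapasin, which holds empty class I molecules at the peptide transporter until a peptide is bound. Its brighter probe set (1421812_at) had 767, 756.5 and 1020 in Notch1f/f tumours, against 561, 504 and 565 in Notch1+/+ tumours. All 3 Notch1f/f tumours were above all 3 Notch1+/+ tumours, by a log2 difference of 0.62 ± 0.19 (SE, 95% interval 0.18 to 1.05, unadjusted p = 0.0102, limma adjusted p = 0.290, exact permutation p = 0.1). The difference did not rest on Notch1+/+ tumour 1, without which it was 0.64, and it ran from 0.48 to 0.69 over the 6 fits that each left out a tumour. The dimmer probe set (1450378_at) showed no such separation, at 94.9, 100.3 and 109 in Notch1f/f tumours against 79.1, 97.3 and 131 in Notch1+/+ tumours, a log2 difference of 0.01 ± 0.25 with a 95% interval of -0.55 to 0.57. The 2 probe sets of the gene therefore disagreed.

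Tap1 and Tap2 encode the paired subunits of the peptide transporter. Tap1 (1416016_at) had 390, 292 and 296 in Notch1f/f tumours, against 355, 261 and 267 in Notch1+/+ tumours. The ranges overlapped, with Notch1+/+ tumours 2 and 3 below every Notch1f/f tumour and Notch1+/+ tumour 1 above all but Notch1f/f tumour 1, and the log2 difference was 0.14 ± 0.22 with a 95% interval of -0.36 to 0.65 (limma adjusted p = 0.805). Its other tested probe set, near the lower end of the scale at 7.1 to 13.9, had -0.13 ± 0.18. Tap2 had 584, 608 and 929 in Notch1f/f tumours, against 944.5, 934 and 646 in Notch1+/+ tumours. Each group thus held 1 tumour that sat with the other group, Notch1f/f tumour 3 and Notch1+/+ tumour 3, and the log2 difference was -0.26 ± 0.24 (95% interval -0.80 to 0.29, limma adjusted p = 0.658). The transporter subunits did not vary together over the tumours (r = -0.21 over 6 tumours, a description).

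Erap1 encodes the aminopeptidase that trims peptides in the endoplasmic reticulum to the length class I binds. It had 194, 288 and 213 in Notch1f/f tumours, against 240, 244 and 212 in Notch1+/+ tumours. The means were almost equal, 232 ± 49.4 and 232 ± 17.5 (SD, n = 3 each), with a log2 difference of -0.02 ± 0.22 and a 95% interval of -0.52 to 0.49. Its second probe set gave -0.01 ± 0.28, with Notch1f/f tumour 2 highest on both. Nlrc5 encodes the transactivator that drives transcription of class I genes. Its 1 probe set was dim, at 49.9, 34.0 and 27.5 in Notch1f/f tumours against 14.8, 38.0 and 38.6 in Notch1+/+ tumours. Notch1f/f tumour 1 was highest and Notch1+/+ tumour 1 lowest, the other 4 lay together, and the log2 difference of 0.22 ± 0.30 (95% interval -0.45 to 0.89) was -0.05 without Notch1+/+ tumour 1. On the brightest probe sets, the 95% intervals of Tap1, Tap2, Erap1 and Nlrc5 each overlap that of H2-K1, 0.03 to 0.98. Differences between genes were not tested.

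Single tumours set much of the spread. Of the 20 tested member probe sets, 13 had their lowest value in Notch1+/+ tumour 1, and 12 had their highest in Notch1f/f tumour 3 (7) or 1 (5). Averaged over the 8 genes, with each gene's log2 values centred on its mean over the 6 tumours, Notch1f/f tumours 1, 2 and 3 stood at 0.16, 0.03 and 0.21, and Notch1+/+ tumours 1, 2 and 3 at -0.27, -0.10 and -0.04. The group order thus held for this average, with Notch1f/f tumour 2 and Notch1+/+ tumour 3 as near neighbours 0.03 above and 0.04 below 0. Among 12035 other tested genes, the 5 whose centred log2 values over the 6 tumours lay closest to this average by root mean square distance were Mad2l1bp (distance 0.018), Ptcd1 (0.031), Hip1 (0.032), Gpkow (0.040) and Snrpb2 (0.046). With 6 tumours and 12035 genes, close matches to any profile are to be found, and no test was made.

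Some marker lists had the same direction as these differences and others did not. Median log2 differences were above 0 for the T cell, macrophage, MHC class II, dendritic cell and B cell lists. They were 0.01 for thymic epithelial (5 tested genes), 0.00 for NK cell (3), -0.02 for endothelial (2) and -0.36 for fibroblast markers (7). In these bulk tumours, fewer cells of a type and less RNA per cell cannot be told apart. The summed intensities given here add a fixed set of probe sets in each tumour. The brightest probe sets weigh most in them, so they only describe the order of the tumours. The summed intensity of 11 measured macrophage markers was 1503, 1488 and 2882 in Notch1f/f tumours, against 272, 920 and 940 in Notch1+/+ tumours, and that of 8 MHC class II presentation genes was 1268, 827 and 5252 against 371, 824 and 479. Notch1+/+ tumour 1, the lowest for most class I probe sets, was also the lowest for both lists, and Notch1f/f tumour 3 was the highest for both. Lyz2, the lysozyme of macrophages, had 284.5, 365 and 1122.5 in Notch1f/f tumours against 77.0, 261 and 159 in Notch1+/+ tumours. H2-Aa, the brightest class II gene by mean log2 value, had 312, 168 and 1223 in Notch1f/f tumours against 42.2, 159 and 91.8 in Notch1+/+ tumours. Cd74, the class II invariant chain, had 248, 157 and 1830 against 31.6, 151 and 77.2. Of the macrophage list, 9 of 11 tested genes lay above 0 on the log2 scale, where 45.0% of all tested probe sets lay above 0. The 2 below were the markers Adgre1 (-0.19 ± 0.30) and Itgam (-0.32 ± 0.26), and the median difference of the list was 1.06. All 8 class II genes were above 0, with a median of 1.43. The 12 measured T cell markers summed to 23140, 22660 and 28060 in Notch1f/f tumours against 18380, 21900 and 19670 in Notch1+/+ tumours, again highest in Notch1f/f tumour 3 and lowest in Notch1+/+ tumour 1, and 11 of the 12 had a difference above 0 (median 0.27). The 8 mature T cell genes followed the same order at both ends, with summed intensities of 1824, 1591 and 2155 in Notch1f/f tumours against 347, 1147 and 1002 in Notch1+/+ tumours. Gimap6, a GTPase of lymphocytes, was the brightest of them, with 831, 451 and 530 in Notch1f/f tumours against 176, 386 and 190 in Notch1+/+ tumours. Of these genes 7 of 8 were above 0, with a median of 1.28, and 6 did not overlap between the groups (8.13% of all tested probe sets were higher without overlap). Ms4a4b, a membrane protein of mature T cells, and Ccr7, the receptor that guides them to lymph nodes, had the smallest p among them, with log2 differences of 3.05 ± 0.39 and 2.01 ± 0.32 (limma adjusted p = 0.0693 and 0.0981). The part of these cell types in the class I values was not tested.

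**Figure D3:**
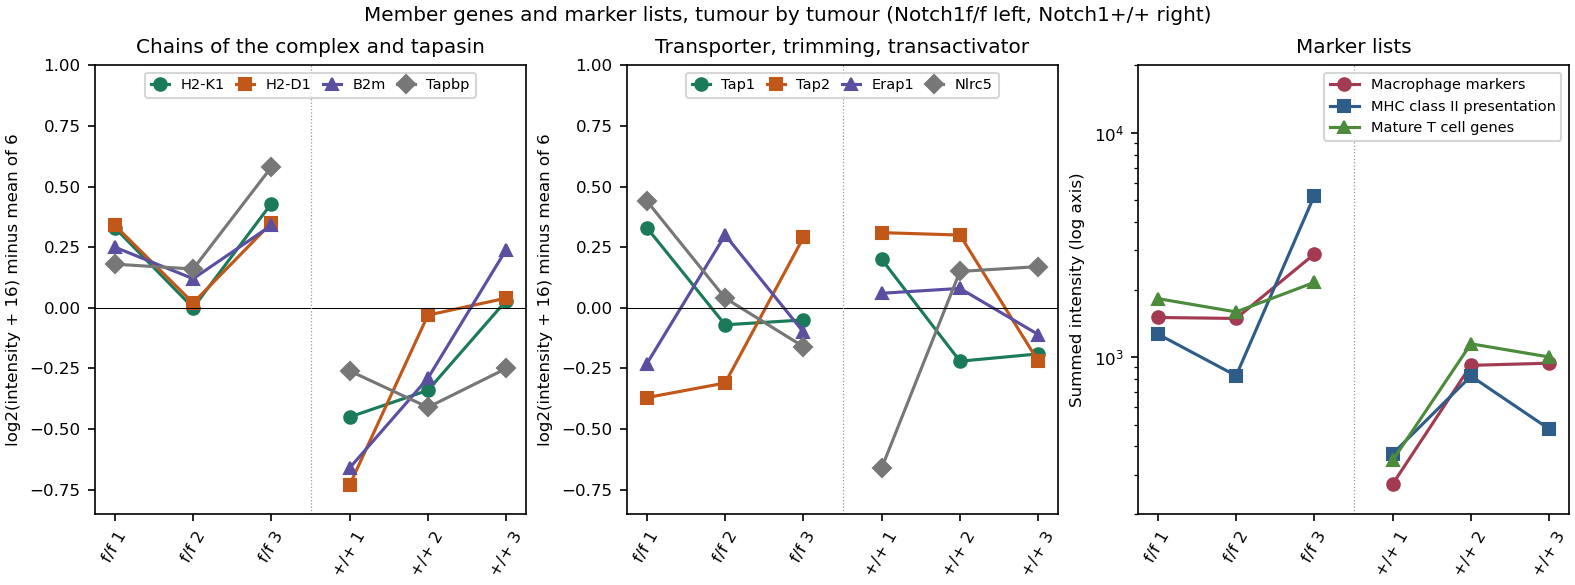
Left and middle, log2(intensity + 16) of each member gene's brightest probe set minus its mean over the 6 tumours; right, summed intensity (log axis) of 3 marker lists; Notch1f/f tumours stand left of Notch1+/+ tumours and lines only join values of 1 gene or list within a group. H2-D1 and B2m reach -0.73 and -0.66 in Notch1+/+ tumour 1, where the macrophage markers sum to 272, whereas Tap1 and Tap2 lie above 0 in that tumour.

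The other marker lists were less even. B cell markers summed to 1276, 1774 and 3460 in Notch1f/f tumours against 1068, 475 and 714 in Notch1+/+ tumours, most of it from Ighm, the mu heavy chain (1195, 1665 and 3153 against 1017, 266 and 644), while Cd79a, a chain of the B cell receptor, had 15, 12.1 and 121 against 7.3, 6.7 and 9.8. Of the 6 tested B cell markers, 5 were above 0 and 1 below. The 1 below was Blk, at -0.58 ± 0.72, with its highest value of 151 in Notch1+/+ tumour 2. Of the 9 measured, 3 stayed under 20 in every tumour. Dendritic cell markers summed to 427, 448 and 1344 in Notch1f/f tumours against 318, 508 and 345 in Notch1+/+ tumours, mostly from Cst3, the cystatin C gene (358, 388 and 1126 against 283, 432 and 305), and of the 9 measured, 5 stayed under 20 in every tumour. NK cell markers summed to 2824, 2776 and 4507 in Notch1f/f tumours against 1626, 2502 and 1626 in Notch1+/+ tumours, nearly all from Gzma, a granzyme (2796, 2711 and 4451 against 1594, 2414 and 1584), while Ncr1, a receptor of NK cells, reached at most 4.5. Of the 3 tested, Gzma was above 0, Nkg7, a granule protein, had -0.25 ± 0.47 with its highest value of 66.5 in Notch1+/+ tumour 2, and Prf1, perforin, had a difference of 0.00. Notch1f/f tumour 3 thus stood highest in each of these 3 lists. Thymic epithelial markers summed to at most 108 in Notch1f/f tumours and 129 in Notch1+/+ tumours, and 6 of 9 stayed under 20, the brightest being Ccl25, a thymic chemokine, at up to 63.8. Fibroblast markers other than Thy1, which T cells also express, summed to 868, 1135 and 1951 in Notch1f/f tumours against 2205, 2552 and 1401 in Notch1+/+ tumours, and Thy1 itself had 3705, 3929 and 4962 against 3690, 4656 and 3657. Most of that sum was Pdgfrb, a growth factor receptor, with 813, 1029 and 1827 in Notch1f/f tumours against 1976, 1282 and 1103 in Notch1+/+ tumours. Of the 7 tested with Thy1 counted, 6 were below 0, and only Thy1 lay above it, at 0.07 ± 0.16. The collagens Col1a2 and Col3a1 had the differences -2.21 ± 0.82 and -1.53 ± 0.77, with groups that overlapped for both. Col1a2 had 13.2, 39.8 and 71.3 in Notch1f/f tumours against 190, 978 and 53.3 in Notch1+/+ tumours. Col3a1 had 14.7, 27.6 and 9.0 in Notch1f/f tumours against 4.5, 200.5 and 164 in Notch1+/+ tumours. Endothelial markers summed to 242, 233 and 249 in Notch1f/f tumours against 151, 309 and 177 in Notch1+/+ tumours, mostly from Pecam1, an adhesion molecule (216, 209 and 206 against 125, 272 and 127), with 6 of 7 under 20 in every tumour.

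In the rest of the class I pathway, heavy chain relatives, chaperones, proteasome subunits and regulators lay on both sides of 0, and interferon genes mostly above it. No gene of the pathway lists passed an adjusted p of 0.05 in limma, so the counts that follow are of values above and below 0, where 45.0% of all tested probe sets lay above 0. Of 12 tested heavy chains and class I-like genes outside the members, 5 were above 0 and 7 below, with a median of -0.04. Hfe, a class I-like regulator of iron uptake that pairs with beta-2 microglobulin, had 62.5, 45.8 and 57.7 in Notch1f/f tumours against 21.2, 27.0 and 31.3 in Notch1+/+ tumours (log2 difference 0.75 ± 0.23, limma adjusted p = 0.290). Cd1d1, which presents lipids to NKT cells, had 507.5, 289 and 282 against 240, 204 and 268 (0.52 ± 0.27), and these were the 2 of 12 genes whose groups did not overlap, where 8.13% of all tested probe sets were higher and 10.4% lower without overlap. Fcgrt, the neonatal Fc receptor chain, had 55.0, 59.3 and 34.7 in Notch1f/f tumours against 5.9, 26.3 and 36 in Notch1+/+ tumours. H2-Q2, another heavy chain gene of the H2 region, spread widely, with 712, 347 and 470 in Notch1f/f tumours against 59.8, 365.5 and 838 in Notch1+/+ tumours. H2-Q10, a secreted class I chain, was at 5.6 or less in Notch1f/f tumours, against 3.0, 9.1 and 43.6 in Notch1+/+ tumours.

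Of the 11 tested loading chaperones and trafficking genes, 3 were above 0 and 8 below, with a median log2 difference of -0.18. None of the 11 had an unadjusted limma p under 0.05, where 13.5% of all tested probe sets did. Canx, the chaperone calnexin that folds new heavy chains, had 1279, 1690 and 1852 in Notch1f/f tumours against 2070, 1832 and 1658 in Notch1+/+ tumours. Tapbpl, a tapasin relative that edits peptides away from the transporter, had 226, 207 and 152 against 182, 261 and 298 (log2 difference -0.31 ± 0.26), the opposite sign to Tapbp. Hspa5, the chaperone BiP, had -0.26 ± 0.21 and Sec61a1, a subunit of the channel into the endoplasmic reticulum, 0.19 ± 0.18. All 5 genes measured of the immunoproteasome and its activators, which supply the peptides, had groups that overlapped, with a median of -0.02. Most probe sets on the array overlapped too, as 8.13% of all tested ones were higher and 10.4% lower without overlap. Psmb8, a catalytic subunit of the immunoproteasome whose gene lies beside Tap1 in the H2 region, had 1244, 1653 and 1834 in Notch1f/f tumours against 1209, 2001 and 1642 in Notch1+/+ tumours, and Psmb9, another catalytic subunit encoded there, had 430, 467 and 502 against 424, 534 and 470. Psmb10, the remaining catalytic subunit, had a log2 difference of 0.15 ± 0.31, and the activator subunits Psme1 and Psme3 had 0.22 ± 0.20 and -0.23 ± 0.27.

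Of 15 tested regulators of class I transcription, 8 were above 0 and 7 below, with a median of 0.09. Irf1, the interferon-induced activator of class I promoters, had 461, 418 and 569 in Notch1f/f tumours against 410, 332 and 349.5 in Notch1+/+ tumours, without overlap (log2 difference 0.39 ± 0.21, limma adjusted p = 0.429). Nfya, a subunit of NF-Y, ran the other way without overlap, at 263, 281 and 272 in Notch1f/f tumours against 408, 328 and 310 in Notch1+/+ tumours (-0.33 ± 0.20, limma adjusted p = 0.488). Of the 15 regulators, 1 was thus higher and 1 lower without overlap, where 8.13% and 10.4% of all tested probe sets were. Irf2, a relative of Irf1, had 0.35 ± 0.29 and Relb, an NF-kB subunit, 0.28 ± 0.28.

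Genes of the interferon response, which class I genes belong to in many cells, were mostly above 0. Of 25 tested, 21 lay above 0 and 4 below, the median log2 difference being 0.32, 5 had an unadjusted p under 0.05, all of them higher (5.94% of all tested probe sets), and 8 had Notch1f/f values above all Notch1+/+ values (8.13% of all tested probe sets). Rsad2, the antiviral protein viperin, had 72.8, 44.8 and 37.4 in Notch1f/f tumours against 4.9, 20.2 and 24 in Notch1+/+ tumours (log2 difference 1.08 ± 0.32, limma adjusted p = 0.277). Irf7, a regulator of type I interferon, had 47.8, 60 and 68.6 against 34.2, 25.1 and 29.3 (0.71 ± 0.24). Xaf1 and Isg20, both induced by interferon, had 0.70 ± 0.24 and 0.62 ± 0.25. The difference furthest from 0 ran the other way, Usp18, a protease that restrains interferon signalling, at -1.72 with groups that overlapped, and Gbp6, an interferon-induced GTPase, had -0.54. Ifi47, another such GTPase and the brightest of the list, had 0.05 ± 0.25. The 7 interferon receptor and kinase genes were above 0 in 6 cases, with a median of 0.37. Jak1, a kinase of the interferon receptors, had 803, 838 and 1543 in Notch1f/f tumours against 688, 703.5 and 585 in Notch1+/+ tumours, and Ifnar2, a receptor chain of type I interferon, had 230.5, 104 and 386 against 75.6, 126 and 90.5. Ifnar1, its partner chain, and Tyk2, another kinase of the receptor, had log2 differences of 0.37 ± 0.21 and 0.36 ± 0.24, and neither gene's groups overlapped. With Jak1, 3 of the 7 genes were higher without overlap, where 8.13% of all tested probe sets were. The interferon response genes measured summed to 2637, 3070 and 3022 in Notch1f/f tumours against 2456, 3190 and 2261 in Notch1+/+ tumours, so the sum was highest in Notch1+/+ tumour 2 and lowest in Notch1+/+ tumour 3, unlike the macrophage markers. The brightest probe sets weigh most in this sum too, whereas the counts above weigh each gene alike.

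**Figure D4:**
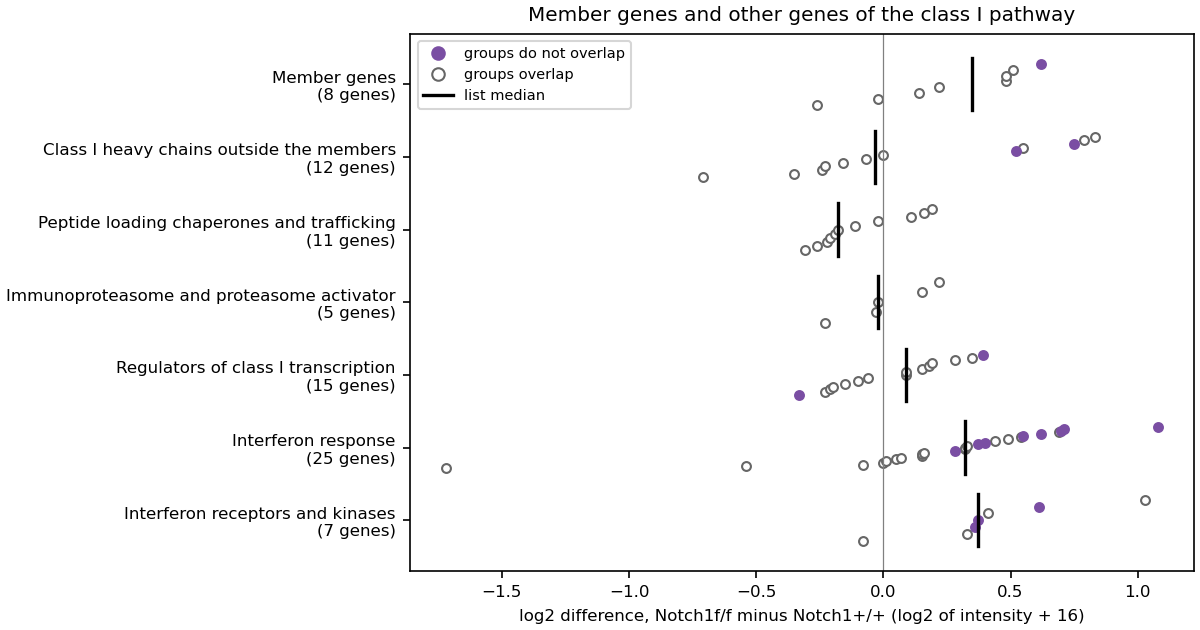
Log2 difference (Notch1f/f minus Notch1+/+, of intensity + 16) of each tested gene, by its brightest probe set, for the member genes and 6 lists of the pathway; filled points have groups that do not overlap and vertical bars are medians. The medians are 0.35 for the member genes, -0.18 for loading chaperones, -0.02 for the immunoproteasome list and 0.32 for the interferon response.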

How the data were processed

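The deposited values are linear intensities, 1 per probe set and array, made with MAS5 (version not given) per the submitters' processing notes. MAS5 corrects background and combines a probe set's probes into 1 signal. Each deposited column had a mean of 100.0 once the top and bottom 2% of its values were trimmed, so the arrays had been scaled. Detection calls were not used here, so no call separates dim signals from background. All 6 columns were used, 1 per tumour.

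Symbols came from the platform's annotation table and were matched by Entrez identifier to RefSeq (GRCm38.p6), which changed 0. Of 45101 probe sets, 64 were controls, 34945 had 1 symbol, 932 several and 9160 none in the table used. Probe sets with several symbols were tested but not named.

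Intensities were analysed as log2(intensity + 16), which understates changes of dim genes. Controls and probe sets with a mean under the 40th percentile (4.56) were left out, leaving 27022. The fit used limma 3.58.1 (lmFit, then eBayes with a mean-variance trend) in R 4.3.3, two-sided, with Benjamini-Hochberg adjustment over all tested probe sets and no covariate, since the labels give no batch or pairing. 95% intervals used the moderated degrees of freedom. Exact permutation tests used scipy 1.17.1 and figures matplotlib 3.10.9 under Python 3.11.15.

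The members, lists and tests were chosen with earlier results of these data known. Named by rule were all member probe sets, the up to 4 genes of each pathway list with the smallest p, the brightest marker of each cell type list and the 5 genes closest to the member profile. Notch1 was added as the targeted gene. H2-Q2, Psmb8, Usp18, Gbp6, Ifi47, Ms4a4b, Ccr7, Cd74, Adgre1, Itgam, Cd79a, Blk, Ncr1, Nkg7, Prf1, Pdgfrb, Col1a2 and Col3a1 fall outside that rule and were chosen after their values were seen. Alternatives were a pseudocount of 1 or 64, no filter or the 60th percentile, quantile normalisation, median centring, no trend, array weights, no moderation, another threshold, other choices of probe set, and each tumour left out.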

Additional observations from a re-analysis of the deposited data

How the results depend on the processing

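The result that no member probe set passed an adjusted p of 0.05 held under all 16 alternatives, including a threshold of 0.10; over the 14 of them run for single probe sets, the lowest adjusted p of any member was 0.121, for B2m (1449289_a_at), whose values ran up to 0.579. The number of all probe sets past the threshold, 5, was 3 with no filter, 11 with median centring, 27 with array weights, 3 without moderation and 40 at a threshold of 0.10, and 2 to 14 with 1 tumour left out (leaving out tumours 1, 2 and 3 gave 3, 12 and 2 for Notch1f/f and 7, 4 and 14 for Notch1+/+). The median of the member genes, 0.35, was 0.14 without _x and _s probe sets and 0.25 to 0.49 with 1 tumour left out. The number of member genes higher in every Notch1f/f tumour, 1 (Tapbp), was 2 when a gene's probe sets were averaged and 1 to 4 with 1 tumour left out. Of 274 log2 differences of the 20 probe sets under alternatives, 252 kept their sign and 22 did not, none of these past the threshold. For Erap1, 1416942_at had 0.03 with median centring and 0.01, 0.02, 0.09 and 0.03 with 1 tumour left out, within -0.17 to 0.09, and 1439068_at had 0.04 with quantile normalisation, 0.03 with median centring and 0.03, 0.13, 0.10 and 0.07 with 1 tumour left out, within -0.20 to 0.13. Tapbp 1450378_at had -0.05 with array weights and -0.14, -0.01 and -0.04 with 1 tumour left out, within -0.14 to 0.18. H2-D1 1426324_at had 0.00 with quantile normalisation and 0.16 and 0.03 with 1 tumour left out, within -0.34 to 0.16, and 1450170_x_at had -0.16 and -0.01 with 1 tumour left out, where it lay within -0.16 to 0.27, and 0.77 with a pseudocount of 1. H2-K1 1427746_x_at had -0.14, within -0.14 to 0.93, and Nlrc5 -0.05, within -0.05 to 0.36, both without Notch1+/+ tumour 1. The cause was not tested. No paired analysis was possible because the labels give the tumours no shared replicate numbers. The signal over background of dim probe sets limits what can be said of Nlrc5 and of the dim probe sets of H2-K1, H2-D1 and Tap1.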
